A study of Mus musculus with 18 samples.

Results

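The Iroquois genes are a family of 6 homeodomain transcription factors that lie in 2 clusters of 3 in the mouse genome, Irx1, Irx2 and Irx4 on chromosome 13 and Irx3, Irx5 and Irx6 on chromosome 8. Their H3K4me3 peaks were taken as every peak that overlapped 1 of 2 windows of the build mm9, chr13:72000000-73500000 and chr8:94250000-95300000. The windows held 23 of 21905 peaks in control islets and 29 of 21434 peaks in Men1 knockout islets. Peaks of both lists that shared at least 1 bp were joined, which gave 28 regions in the windows, 17 on chromosome 13 and 11 on chromosome 8, of 23612 regions in the genome. The windows were selected on the length of their H3K4me3 peaks in knockout against control islets, so the differences in peak length given here describe a chosen place and carry no test.

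The study mapped histone marks by ChIP-seq in mouse pancreatic islets and islet tumours, and 2 of its 18 samples were used here. The control library came from RIP-Cre mice, in which a rat insulin promoter drives Cre recombinase, and the other from mice labelled as having an islet-specific knockout of Men1. Both came from islets of mice 2 months old, and the animals had a mixed background of C57BL/6, FVB/N and 129s6. The labels do not say which Cre line deleted Men1, which exons were removed or how many animals entered a library, so the knockout is described only as far as its label goes. Each genotype had 1 library, so no value below has a replicate error. Read depth is unknown, and peaks took up 42.4 Mb in the control list and 38.3 Mb in the knockout list. The islet label was not checked against marker genes, because the lists carry no gene names and no mm9 annotation was used here.

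Iroquois proteins bind DNA through a homeodomain of the TALE class and take part in patterning the neural tube, heart, limb and kidney. The clusters arose by duplication, so that Irx1 and Irx3, Irx2 and Irx5, and Irx4 and Irx6 are positional counterparts. In the pancreas, Irx1 and Irx2 are known as genes of the glucagon-producing alpha cells. H3K4me3 marks the starts of active genes and of many silent developmental genes that are held poised by Polycomb, and broad stretches of it are typical of genes of cell identity. Menin, the product of Men1, is a subunit of the MLL complexes that place this mark.

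Regions less than 10 kb apart were grouped, and groups were assigned to genes by the order of genes along the chromosome and general knowledge of where these genes lie in mm9. A gene named for a group is therefore an assignment and not a reading of an mm9 annotation. In the RefSeq gene table, which is of the build GRCm38, the order of protein-coding genes is Adamts16, Irx1, Irx2, Irx4 and Ndufs6 on chromosome 13, and Fto, Irx3, Irx5, Irx6 and Mmp2 on chromosome 8. The noncoding gene Gm20554 overlaps Irx2 there, Irx3os is next to Irx3 and Crnde next to Irx5. H3K4me3 near those genes cannot be told apart from that of their noncoding neighbours.

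The promoters of Irx2, Irx4 and Irx3 are shown, genes whose groups had a shorter, a longer and a nearly equal marked length in the knockout list. They are the 3 of the 6 genes matched in the table of RefSeq promoters used here (GRCm38.p6). Each sequence holds the 250 bases before the annotated start, 5′ to 3′ on the strand of the gene, with CpG dinucleotides in capitals. The positions are of GRCm38.p6 and cannot be set against the mm9 positions of the peaks.
Irx2, plus strand, chr13:72628570-72628819: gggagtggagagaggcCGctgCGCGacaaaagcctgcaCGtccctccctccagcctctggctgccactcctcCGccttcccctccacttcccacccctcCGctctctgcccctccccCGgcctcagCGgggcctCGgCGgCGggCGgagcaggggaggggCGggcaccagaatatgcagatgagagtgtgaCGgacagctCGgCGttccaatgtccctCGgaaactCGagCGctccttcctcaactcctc
Irx4, plus strand, chr13:73260247-73260496: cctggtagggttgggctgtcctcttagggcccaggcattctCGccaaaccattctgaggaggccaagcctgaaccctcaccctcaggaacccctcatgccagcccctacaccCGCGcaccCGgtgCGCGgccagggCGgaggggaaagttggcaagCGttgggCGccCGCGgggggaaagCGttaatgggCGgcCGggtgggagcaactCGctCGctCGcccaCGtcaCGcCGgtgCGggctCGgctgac
Irx3, minus strand, chr8:91801655-91801904: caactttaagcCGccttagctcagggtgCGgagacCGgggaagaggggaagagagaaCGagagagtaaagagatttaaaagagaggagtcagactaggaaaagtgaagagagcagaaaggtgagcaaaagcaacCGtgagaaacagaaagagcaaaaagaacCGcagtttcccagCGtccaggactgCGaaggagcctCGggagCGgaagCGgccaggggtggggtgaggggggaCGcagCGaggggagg
The dinucleotide CG, which reads the same on both strands, occurred 19 times before Irx2, 22 times before Irx4 and 13 times before Irx3. The median over 32851 promoters of this length was 6. At least as many CG were held by 19.7% of promoters for Irx2, 14.8% for Irx4 and 31.5% for Irx3, so all 3 were CpG-rich. The GC content was 68.4%, 68.8% and 56.0% in the same order. The letters TATAAA, searched on both strands, were in none of the 3 windows and in 12.4% of all promoters.

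The first comparison set the clusters side by side. Length under H3K4me3 peaks was lower in knockout than in control islets across the Irx1, Irx2 and Irx4 window and higher across the Irx3, Irx5 and Irx6 window. On chromosome 13 there were 15 control peaks over 30392 bp and 18 knockout peaks over 22829 bp, which is 75.1% of the control length and a log2 ratio of -0.41. On chromosome 8 there were 8 control peaks over 12254 bp and 11 knockout peaks over 15404 bp, or 125.7% of the control length and a log2 ratio of 0.33. The clusters thus differed by -0.74 on the log2 scale, in a pair of lists whose total length gave 90.1%, a log2 ratio of -0.15. Less H3K4me3 per cell and fewer cells that carry the mark cannot be told apart in bulk chromatin.

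Per Mb of window, the control list covered 20.3 kb on chromosome 13 and 11.7 kb on chromosome 8, while the knockout list covered 15.2 and 14.7 kb. The marked density of the clusters was therefore close in knockout islets and apart in control islets. The genome was also divided into consecutive stretches as long as each window, and those with a mean covered length of at least 10000 bp were kept. Among 1158 stretches of 1.5 Mb the median log2 ratio was -0.16 (SD 0.15 over stretches), and 50 were at or below the value of the chromosome 13 window. Among 1321 stretches of 1.05 Mb the median was again -0.16 (SD 0.16), 9.39% were above 0, and 9 were at or above the value of the chromosome 8 window. These are places in the genome and not replicates, and they describe where the windows lie among others.

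The typical peak was about equally wide in both clusters. The median peak width on chromosome 13 was 1080 bp for control peaks (653 to 6658 bp) and 1196 bp for knockout peaks (355 to 2598 bp). On chromosome 8 it was 1048 bp (519 to 3751 bp) and 1004 bp (569 to 3702 bp). Over the whole lists, the medians were 1773 bp (control) and 1632 bp (knockout), so most Iroquois peaks were narrower than the typical peak in both. The mean width on chromosome 13 was 2026 bp in the control list and 1268 bp in the knockout list, and the widest control peaks were the ones with short knockout counterparts. On chromosome 8 the means were 1532 and 1400 bp. Of the 3150 bp by which the knockout list was longer there, 1575 bp lay in the 7 regions marked in both lists and 1575 bp was the balance of regions found in 1 list alone.

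**Figure D1:**
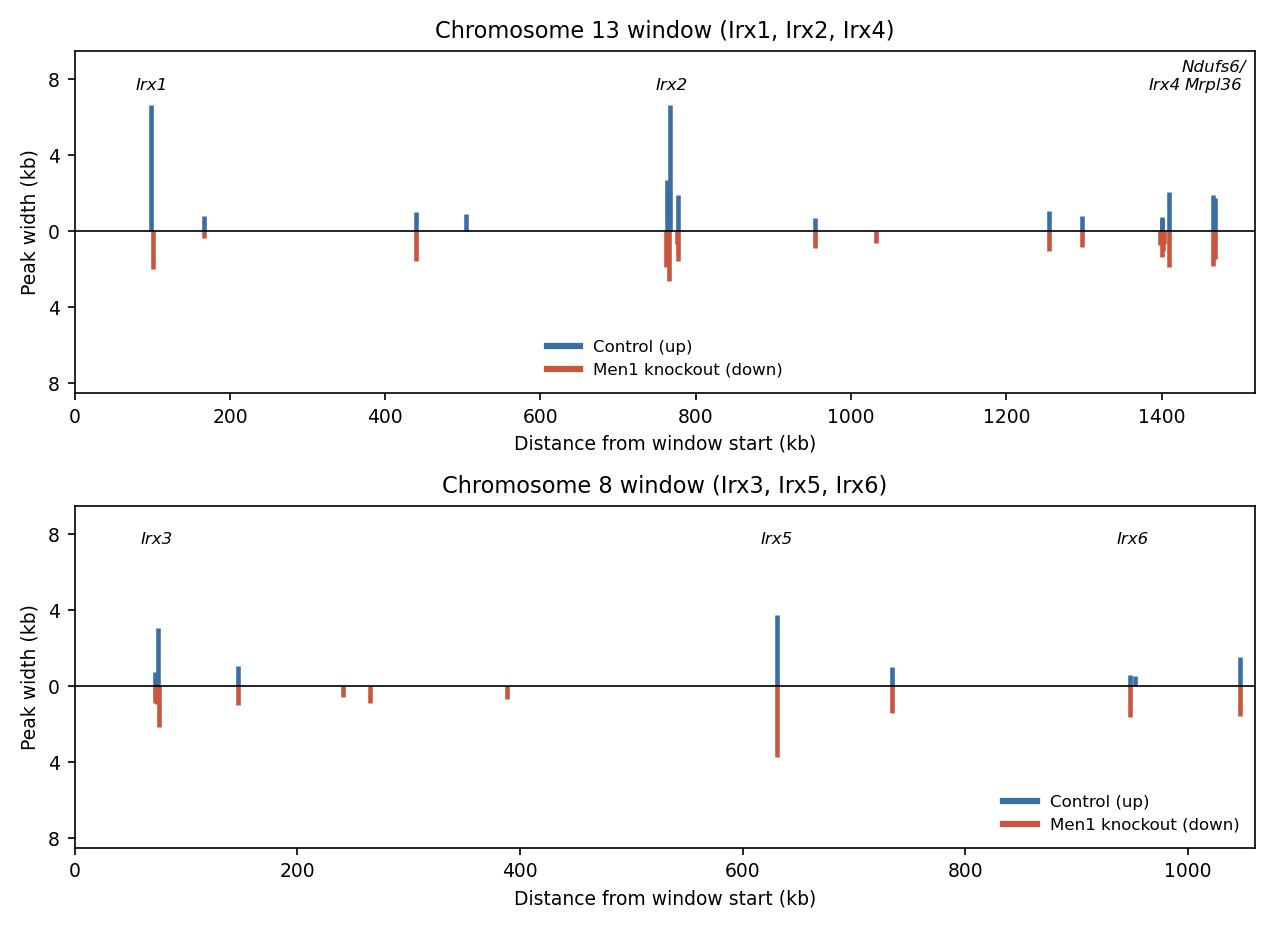
H3K4me3 peaks across both windows, with the distance from the window start in kb on the x axis and the width of each peak in kb as the height of its line, control upward and Men1 knockout downward (1 library each). The tall control lines at Irx1 (6658 bp) and Irx2 (6647 bp) have short knockout counterparts. On chromosome 8, Irx5 is alike in both lists, while the 3065 bp control line at Irx3 faces 2 knockout lines of 945 and 2142 bp.

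Irx1, the first gene of the chromosome 13 cluster, had the greatest difference of the family. Its group was a single domain (chr13:72095477-72102134) of 6658 bp in the control list, of which the knockout list called 1981 bp, or 29.8% of the control length. The log2 ratio was -1.75, the lowest of the 1897 regions in the widest 10% of regions marked in both lists, where the median was -0.07 (SD 0.18 over regions). The difference was one-sided, since the border on the low-coordinate side lay 4419 bp further in and the other border 258 bp. Where the start and the body of Irx1 lie within this domain was not read from an mm9 annotation.

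The control peak at Irx1 had a score of 2304, above 52.5% of the control list, and the knockout peak one of 797, above 40.0% of the knockout list. The score is the authors' value for each peak and depends on depth, so it is used here only as a place within its own list. The control domain was thus very wide, with a score near the middle of its list. Scores higher in the control list lay close together: the 3099 of the Irx2 domain was above 58.7% of the list and a score of 3202 above 99.8%. Places in that upper part therefore separate peaks that differ little in score.

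Irx2, the second gene of the cluster and a counterpart of Irx5, had the longest marked stretch of the family in control islets. The group spanned 17.0 kb (chr13:72761067-72778110) and held 3 control peaks with 11288 bp and 4 knockout peaks with 6719 bp, or 59.5%. Its parts differed among themselves. The central domain (chr13:72763979-72770625) had 6647 bp under the control peak and 2598 bp under the knockout peak, a log2 ratio of -1.36 and the third lowest of the widest 10%. Here too the difference was one-sided, with the border moved in by 3375 bp on the high-coordinate side and by 674 bp on the other. Irx2 is on the plus strand in RefSeq, on which coordinates rise in the direction of transcription.

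The other regions of the Irx2 group were marked in both lists and differed less. On the low-coordinate side (chr13:72761067-72763788), the control peak covered 2722 bp and the knockout peak 1874 bp, a log2 ratio of -0.54. This region lay 0.19 kb from the central domain. On the high-coordinate side (chr13:72775725-72778110), there were 1919 bp in 1 control peak and 2247 bp in 2 knockout peaks, a log2 ratio of 0.23. That region held the highest score of the group in the knockout list, 3024, above 65.8% of the list, against 2413 and 53.3% in the control list. The stretch that was not called in knockout islets thus lay between a pair of regions that remained marked.

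Regions 1 and 6 of the chromosome 13 window, which are the domains of Irx1 and Irx2, held most of the difference in the cluster. Together they held 43.8% of the marked length of the window in control islets and 20.1% in knockout islets. Without both, the window had 17087 bp (control) and 18250 bp (knockout), a log2 ratio of 0.09. These domains were set aside because they had the greatest losses, so a value nearer to no difference was to be met and does not describe the rest as unchanged. Of the 13 regions of the window marked in both lists, 8 were shorter in knockout and 5 longer. What remained also held the weak Irx4 group, with 3435 bp of control and 5603 bp of knockout peaks.

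**Figure D2:**
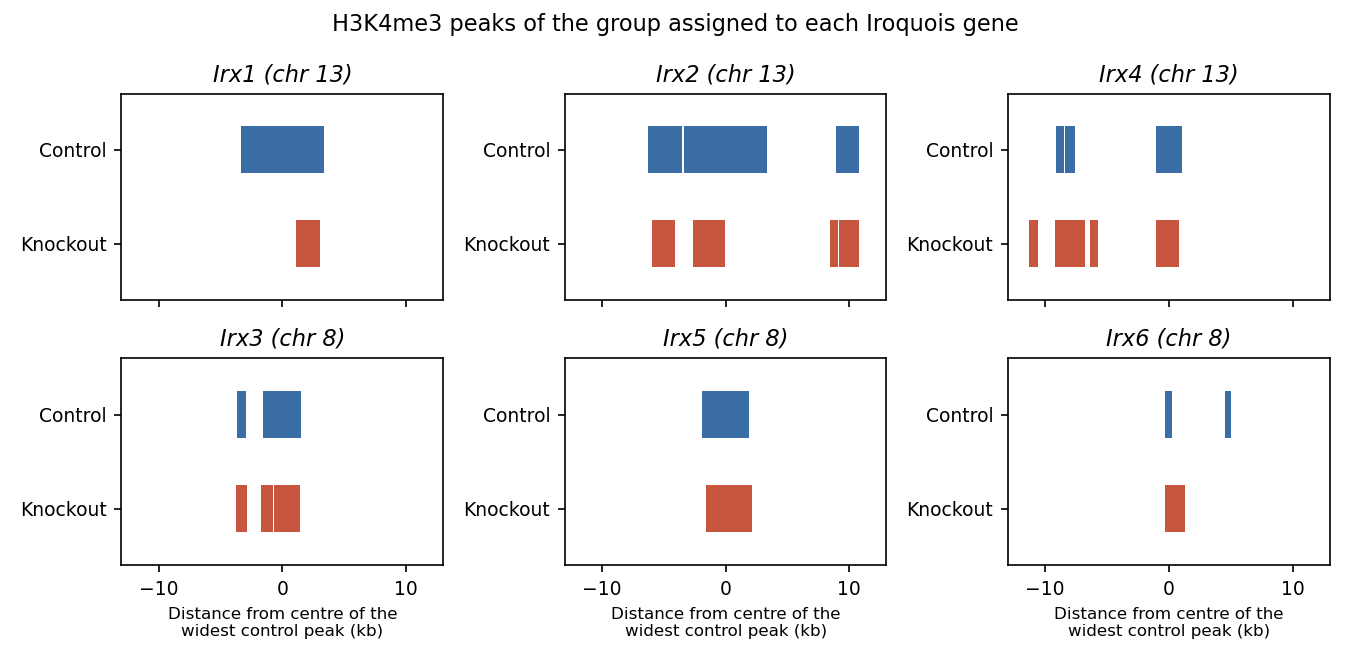
H3K4me3 peaks of the group assigned to each Iroquois gene, drawn to scale on 1 axis of distance in kb from the centre of the widest control peak, with control above and Men1 knockout below. At Irx1 and Irx2 1 side of the domain has no knockout peak, Irx4 and Irx6 have longer marked stretches in knockout, and Irx3 and Irx5 have nearly the same extent in both lists.

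Irx4, known for its part in the ventricle of the heart, went the other way from its neighbours on the same chromosome. Its group (chr13:73397885-73410163) held 3 control peaks with 3435 bp and 5 knockout peaks with 5603 bp, or 163% of the control length and a log2 ratio of 0.71. The region in the middle (chr13:73399976-73402357) had 1390 bp under control peaks and 2372 bp under knockout peaks, 2 of each. It was flanked by peaks found in the knockout list alone, of 706 bp on one side and 647 bp on the other. Further along (chr13:73408106-73410163), control and knockout lists covered 2045 and 1878 bp, so the greater length lay in the other regions of the group.

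The marked stretch at Irx4 was weak in both lists. The best control peak of the middle region scored 95.7, above 9.51% of the control list, and the best knockout peak 183, above 21.5% of the knockout list. The lowest scores in the lists were 60.01 and 60.02, so these control peaks lay close to the lowest score that was called. How often a peak of such a score is called in a second library of the same genotype is not known. No ratio could be formed at a score of 100 or more, since no control peak of the middle region reached it.

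Irx6, the counterpart of Irx4 on chromosome 8, also had a longer stretch in the knockout list. The first region of its group (chr8:95197203-95198846) had a control peak of 578 bp and a knockout peak of 1644 bp, a log2 ratio of 1.51. A ratio as high was found at 0.0474% of all regions marked in both lists. That share is over regions of every width and score, and narrow or weak regions like this one were not set apart. The scores were 82.5 in control, above 6.89% of the list, and 295 in knockout islets, above 27.8%. Another control peak, 519 bp wide and scored 65.9, lay 3.2 kb further on (chr8:95202076-95202594) and had no knockout counterpart. With both regions, the group of Irx6 came to 1097 and 1644 bp, a log2 ratio of 0.58.

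Irx3 and Irx5, the counterparts of Irx1 and Irx2, differed little between the lists. At Irx5 (chr8:94878789-94882801) the control peak was 3751 bp wide and the knockout peak 3702 bp, a log2 ratio of -0.02, which becomes 0.09 once the median of all regions is subtracted. The knockout border lay 311 bp further in on the low-coordinate side and further out on the other (-262 bp inward). The Irx3 domain (chr8:94323266-94326534) held 1 control peak of 3065 bp and 2 knockout peaks with 3087 bp in all, a log2 ratio of 0.01. A small region on its low-coordinate side (chr8:94321291-94322184) covered 726 and 894 bp.

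Irx3 and Irx5 also lay at a similar place within the scores of each list. The Irx5 peak scored 2634 in control, above 55.0% of the list, and 2397 in knockout islets, above 58.9%. The best Irx3 peak scored 2546 and 2246, above 54.2% and 57.5%. These were the only peaks of the chromosome 8 window at or above the median score of their list, 2 in each list. On chromosome 13 there were 5 such peaks in control and 3 in knockout islets.

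Set out by counterpart, the log2 ratios of the gene groups were -1.75 for Irx1 and 0.07 for Irx3, -0.75 for Irx2 and -0.02 for Irx5, and 0.71 for Irx4 and 0.58 for Irx6. The group was shorter in the knockout list at 3 genes and longer at 3. Irx4 and Irx6 had 163% and 149.9% of their control length in the knockout list. Irx1 and Irx2, with the longest domains in control islets, were the ones with less. The plot of covered length per gene shows the same values with the neighbours of Irx4, Ndufs6 and Mrpl36, as a reference within the window.

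**Figure D3:**
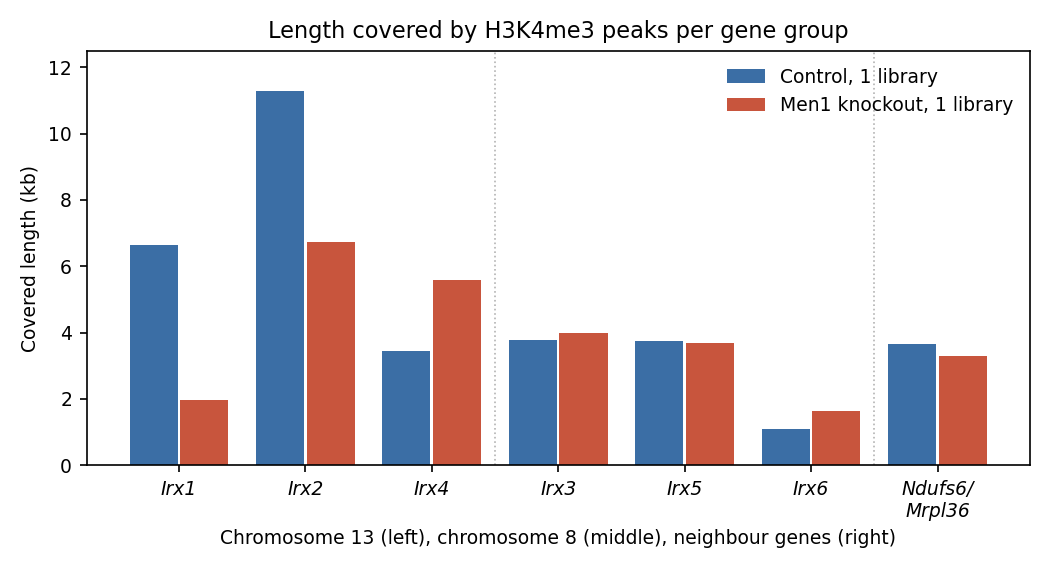
Length covered by H3K4me3 peaks in kb in the group assigned to each gene, in control and Men1 knockout islets (1 library each, so no error bars). Irx1 and Irx2 are lower in knockout, Irx4 and Irx6 higher, and Irx3, Irx5 and the Ndufs6 and Mrpl36 group differ little.

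Ndufs6 and Mrpl36, which encode a subunit of respiratory complex I and a mitochondrial ribosomal protein, are not Iroquois genes but lie in the window after Irx4. Their group (chr13:73464765-73469764) had 3673 bp of control and 3285 bp of knockout peaks, or 89.4%, close to the 90.1% of the whole lists. It held the peak with the highest score in the window in control islets, 3202, above 99.8% of the list. The knockout counterpart of that peak scored 2334, above 58.3% of the knockout list. Control scores lie close together in the upper part, where 3099 was above 58.7% of the list, so these 2 places are not compared. The other peak of the group scored 2585 in control and 2507 in knockout islets, above 54.6% and 60.3% of their lists. This group was the one in the windows assigned to genes other than Iroquois genes.

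The remaining 13 regions of the windows were assigned to no gene. The region at chr8:95295578-95297283 lay 93.0 kb beyond the Irx6 group, and the others lay between assigned groups. Together the 13 regions had 8953 bp of control and 11318 bp of knockout peaks. On chromosome 13, the 7 such regions came to 5338 and 5241 bp. On chromosome 8, the 6 such regions covered 3615 and 6077 bp. Most of the greater length of this window in knockout islets thus lay outside the groups assigned to genes. Of the 8 such regions marked in both lists, 1 between Irx1 and Irx2 (chr13:72438783-72440344) had 1032 bp with a score of 180 in the control list and 1562 bp with a score of 535 in the knockout list. Another (chr13:72166559-72167383), 64.4 kb from the Irx1 domain, had 825 and 355 bp. Beyond Irx5, 100.9 kb from its domain, a region (chr8:94983739-94985144) had a 1037 bp control peak scored 231 and a 1406 bp knockout peak scored 1442, above 23.2% and 48.3% of their lists.

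Peaks found in 1 list alone were mostly knockout peaks. Of the 23 control peaks 2 had no knockout counterpart, and of the 29 knockout peaks 6 had no control counterpart. Over the whole lists, such peaks made up 12.7% of control peaks (exact 95% binomial interval 12.2 to 13.1) and, with an interval of 8.34 to 9.10, 8.71% of knockout peaks. These intervals treat the peaks of a list as separate draws and do not measure variation between libraries. On chromosome 8, 3 knockout peaks of 569, 869 and 656 bp lay between Irx3 and Irx5 and had no control counterpart. They scored 83.1, 125 and 65.2. The same gap held a region marked in both lists (chr8:94396216-94397274), with 1059 bp of control and 1004 bp of knockout peaks. On chromosome 13, 2 of the 3 knockout-only peaks were the flanks of Irx4. The other, of 608 bp, lay between Irx2 and Irx4 with a score of 69.3. The control-only peaks were the 519 bp peak at Irx6 and one of 904 bp between Irx1 and Irx2, with a score of 123. All 8 were weak peaks, and depth could not be compared.

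The last comparison set the 20 regions marked in both lists against all 18970 such regions of the genome. Knockout length was at most 0.5 of control length, a 2-fold difference, at 3 of the 20, all on chromosome 13, against 1.24% of all regions and 0.527% of the widest 10%. These were Irx1, the Irx2 domain and an 825 bp region 64.4 kb from the Irx1 domain, at -1.75, -1.36 and -1.22. The next value was -0.54. The 825 bp region was weak, with scores of 101 in control and 65.3 in knockout islets, above 10.4% and 2.31% of their lists. The shares of 1.24% and 0.527% were not taken over narrow, weak regions. Knockout length was at least 2 times control length at 1 of the 20, the Irx6 region, against 0.206% of all regions. Knockout length was the greater at 10 of the 20, 5 in each window, against 26.1% of all regions. This counts any difference, down to 1 bp at chr13:73297562-73298454, and the 26.1% is over regions of every width and score. More knockout than control peaks were held by 2 of the 20, at Irx2 and Irx3, against 2.73% of all regions. The windows were chosen by this same contrast, so these counts are a description from which nothing is read. The median log2 ratio was -0.07 over the 13 regions on chromosome 13 and 0.05 over the 7 on chromosome 8, against -0.11 (SD 0.29 over regions) in the genome.

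**Figure D4:**
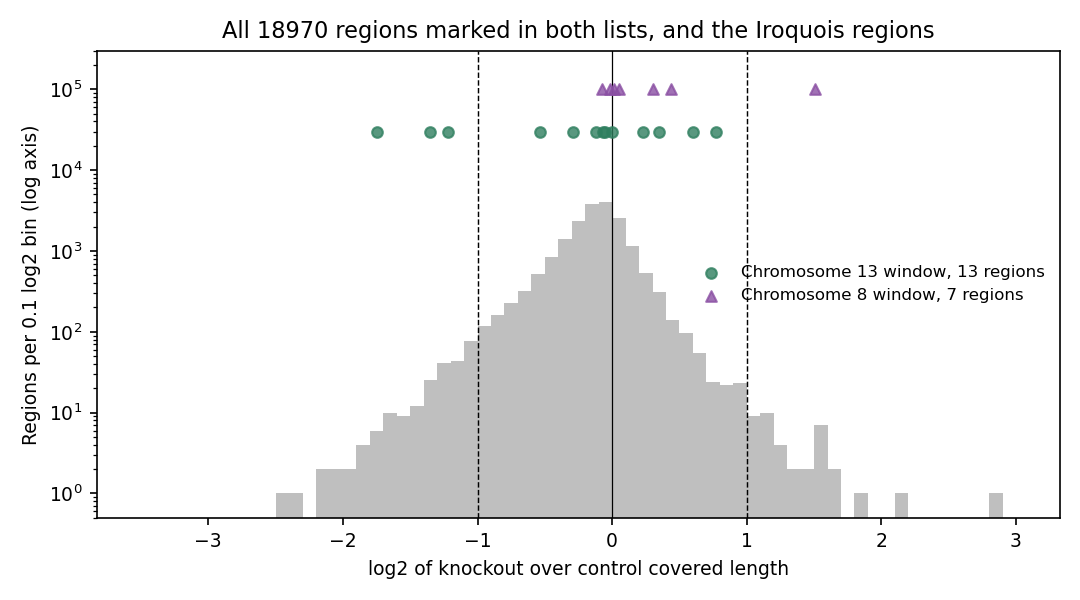
Histogram of the log2 ratio of knockout over control covered length over all 18970 regions marked in both lists (grey, log axis for counts), with the 13 regions of the chromosome 13 window as circles and the 7 of the chromosome 8 window as triangles above it at arbitrary heights. Dashed lines stand at a 2-fold difference; the circles reach from -1.75 to 0.77 and the triangles from -0.08 to 1.51.

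Scores were set side by side in the same way. Of 15 regions in the windows with 1 peak in each list and both scores under 3000, 9 had the higher score in the knockout list. Over the genome, this held for 28.9% of 9364 such pairs, and for 44.4% of the 3707 pairs with a control score under 400. Scores of different libraries are not on a common scale, so these shares describe the lists and not the amount of H3K4me3. Peaks of the windows with a score under 100 numbered 6 in each list.

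The direction of the chromosome 8 window depended on how strictly peaks were filtered by score. Leaving out peaks scored under 100 gave a log2 ratio of 0.44, against 0.33 with all peaks. With only peaks at or above the median score of their list, there were 6816 bp of control and 5844 bp of knockout peaks. The log2 ratio then turned to -0.22. This stricter choice left only the best peaks of Irx3 and Irx5. It dropped a 945 bp knockout peak of the Irx3 domain, scored 109, while the 3065 bp control peak there was kept whole. On chromosome 13 the same choice left 18897 and 4859 bp, a log2 ratio of -1.96, because the knockout peaks at Irx1 and at the Irx2 domain were below the median score of their list.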

How the data were processed

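H3K4me3 ChIP-seq peak lists of 2 libraries were used, control and Men1 knockout islets of mice 2 months old. Per the submitters' processing notes, Bowtie, MACS 1.4.2 and the build mm9 were used. The sources used here do not give the use of input libraries, filters or pooling. The authors deposited a position and a score per peak, with no counts, so depth is unknown. Lists were matched to samples by genotype, age and mark in their names, which also hold the unexplained word "2nd". No per-sample column was unused (0 columns).

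Starts were counted from 1. Peaks sharing at least 1 bp were joined into regions, the length covered by each list was compared as log2 of knockout over control, and regions less than 10 kb apart were grouped. All 6 Iroquois genes and all regions of the windows were described, with no choice among them. The windows and lists were chosen with earlier results of these data known, and grouping and gene assignment were made after the peaks were seen. Functions were tested on simulated data (numpy 2.4.6, scipy 1.17.1, matplotlib 3.10.9). No p-value was computed. Alternatives changed gaps, scores, numbers of peaks, windows, centring and overlap. The other 16 samples were not analysed here.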

Additional observations from a re-analysis of the deposited data

How the results depend on the processing

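Of 104 values under other settings, 81 were close to the reported one, 20 moved and 3 changed sign. Close means within 1.2 times for ratios and 1.5 times for lengths, counts, widths and scores. The chromosome 13 ratio was below 0 in 10 of 11 settings, the chromosome 8 ratio above 0 in 9 of 10, and the difference below 0 in 11 of 11. Some settings could not move a value. Subtracting the ratio of the total lengths cannot change the difference, and leaving out the Ndufs6 and Mrpl36 group cannot change chromosome 8. Equal numbers of peaks also left chromosome 8 at 0.33, and widened windows left chromosome 13 at -0.41. These counts therefore do not measure how stable the results are. Without the domains of Irx1 and Irx2, a choice made after seeing the data, the chromosome 13 ratio was 0.095 and the difference -0.24. With peaks at or above the median score of their list, covered lengths were 18897 bp (control) and 4859 bp (knockout) on chromosome 13 and 6816 and 5844 bp on chromosome 8, the ratios -1.96 and -0.22 and their difference -1.74. On chromosome 13 the filter itself removed the knockout peaks at Irx1 and the Irx2 domain. On chromosome 8 it left only the best peaks of Irx3 and Irx5, so that a 945 bp knockout peak of the Irx3 domain was dropped with the weaker peaks. With windows narrowed by 100 kb, chromosome 8 lost the Irx3 group, the 519 bp control peak at Irx6 and the region beyond it. Its lengths were 6425 and 9850 bp and its ratio 0.62. Chromosome 13 lost the Ndufs6 and Mrpl36 group and all control peaks of the Irx4 group. It kept the 706 and 1364 bp knockout peaks of the Irx4 group. Its lengths were 23284 and 16011 bp, its ratio -0.54 and the difference between the clusters -1.16. With peaks within 1 kb joined, the Irx2 domain had a ratio of -1.88, since the control peak was joined to its neighbour, and the Irx4 region one of 1.23. With the median of all regions subtracted, the Irx5 domain had a ratio of 0.094. With regions within 5 kb grouped, a choice made after seeing the data, the Irx2 group had -1.07. With a reciprocal overlap of 50%, 9 control and 9 knockout peaks were shared on chromosome 13. At a score of at least 100 the chromosome 13 control peaks had a median width of 1837 bp and a median score of 429, the knockout peaks there a median score of 527, and the chromosome 8 control peaks one of 1220. The Irx4 and Irx6 regions gave no ratio at that score, because no control peak was left. No paired analysis was possible because there was a single library of each genotype, and none could be left out. Without the depths, an absent peak may be one that was not detectable.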
